A study of Mus musculus with 12 samples.

Results

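Motor neurons of the spinal cord are told apart by a small set of transcription factors, and 10 genes of that set were followed here, chosen by name: Mnx1, Isl1, Isl2, Lhx1, Lhx3, Lhx4, Foxp1, Pou3f1, Etv4 and Aldh1a2. Aldh1a2 is an enzyme rather than a factor and belongs to the set as a mark of limb-level motor neurons. They are 10 of the 38924 genes listed in each library, and all 10 were among the 17765 genes that passed the filter on low counts. RNA of whole spinal cord from mice aged 8 weeks, of strain background B6J.Cg, was sequenced in 12 libraries. By genotype the mice were wild type (WT) or carried C201R in 1 copy of Gars, the gene of glycyl-tRNA synthetase, which attaches glycine to its transfer RNAs. The genotype tag reads C201R+/- for libraries titled C201R and C201R+/+ for those titled WT, and was taken with the titles as heterozygous and wild type. Titles assign 3 female and 3 male libraries to each genotype.

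Genotype is written down in both the title and the library name of each sample, and in 4 of the 12 libraries these disagree. By library name, C201R holds libraries 1, 2, 3, 4, 9 and 10 and WT holds 5, 6, 7, 8, 11 and 12. By title, libraries 4 and 9 are WT and libraries 11 and 12 are C201R. Every comparison was therefore made under both labels, and no library was moved on account of its values. Separate animals are not stated for the libraries, so each p-value reflects only how far these libraries differ among themselves, which may be technical.

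As background, newborn motor neurons acquire their identity when the homeodomain proteins Isl1 and Lhx3 assemble with the cofactor Ldb1 on motor neuron genes, among them Mnx1. Motor neurons then sort into columns and pools: Lhx3 and Lhx4 are kept in the column that serves the axial muscles, Foxp1 directs the columns of the limb levels, Lhx1 marks the lateral division of the limb column, and Pou3f1 and Etv4 mark particular pools. Most of this work was done in embryos, and several of these genes are also used outside motor neurons, Isl1 and Isl2 in sensory neurons, Lhx1 and Lhx3 in interneurons, Pou3f1 in Schwann cells and Aldh1a2 in the meninges.

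By Ensembl identifier the genes lie, in the GENCODE M21 annotation of mouse GRCm38, at chr5:29473034-29478470 for Mnx1, chr13:116298281-116309689 for Isl1, chr9:55538672-55546180 for Isl2 and chr11:84518284-84525535 for Lhx1. Lhx3 lies at chr2:26200212-26208289, Lhx4 at chr1:155698031-155751684 and Foxp1 at chr6:98925338-99522721. Pou3f1 is at chr4:124656807-124660655, Etv4 at chr11:101769742-101785371 and Aldh1a2 at chr9:71215789-71296243. Antisense genes overlap Isl2 (Gm17226), Lhx3 (Gm27196) and Pou3f1 (Gm2164). Their levels reached at most 0.154, 0.714 and 0.105 CPM (counts per library put on a common scale with TMM factors), and whether counting used strand is not stated. The Gm27196 maximum is not small beside Lhx3 itself, whose lowest library had 1.02 CPM, so part of the Lhx3 count is uncertain.

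Promoters are printed for the 2 paralog pairs compared below, Isl1 with Isl2 and Lhx3 with Lhx4, so that the members of each pair can be read side by side. Each is the 250 bases before a RefSeq transcription start, on the gene's own strand and read 5′ to 3′, from the GRCm38.p6 assembly, with every CG dinucleotide in capitals. The windows are chr13:116309689-116309938 on the minus strand for Isl1, chr9:55540899-55541148 on the plus strand for Isl2, chr2:26206576-26206825 on the minus strand for Lhx3 and chr1:155742028-155742277 on the minus strand for Lhx4. For Lhx3, which has 2 listed starts, the window that overlaps no annotated exon is shown. The Isl1 window lies at the edge of the gene span given above. Those of Isl2, Lhx3 and Lhx4 lie inside their gene spans, before internal starts, so the windows are not all at like positions.
Isl1: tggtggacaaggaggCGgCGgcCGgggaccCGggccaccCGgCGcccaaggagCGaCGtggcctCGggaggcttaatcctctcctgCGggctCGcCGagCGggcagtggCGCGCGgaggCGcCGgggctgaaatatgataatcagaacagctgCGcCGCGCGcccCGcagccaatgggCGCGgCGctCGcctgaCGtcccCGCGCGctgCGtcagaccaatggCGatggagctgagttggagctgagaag
Isl2: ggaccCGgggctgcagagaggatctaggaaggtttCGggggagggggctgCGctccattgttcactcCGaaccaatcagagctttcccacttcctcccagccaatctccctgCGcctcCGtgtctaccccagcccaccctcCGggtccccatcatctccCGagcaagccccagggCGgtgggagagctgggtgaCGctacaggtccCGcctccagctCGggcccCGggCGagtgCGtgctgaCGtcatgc
Lhx3: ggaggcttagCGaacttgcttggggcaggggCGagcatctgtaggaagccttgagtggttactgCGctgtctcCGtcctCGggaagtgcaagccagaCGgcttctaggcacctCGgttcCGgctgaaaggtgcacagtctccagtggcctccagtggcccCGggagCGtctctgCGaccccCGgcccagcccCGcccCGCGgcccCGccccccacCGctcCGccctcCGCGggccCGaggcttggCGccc
Lhx4: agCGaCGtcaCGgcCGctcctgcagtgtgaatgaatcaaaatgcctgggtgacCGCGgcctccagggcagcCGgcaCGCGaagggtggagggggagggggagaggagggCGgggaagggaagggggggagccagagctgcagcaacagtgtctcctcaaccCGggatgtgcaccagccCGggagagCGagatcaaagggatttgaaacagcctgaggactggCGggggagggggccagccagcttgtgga
The Isl1 window holds 33 CG dinucleotides, Lhx3 22, Isl2 16 and Lhx4 14. Across 32851 RefSeq windows of the same length the median was 6, with quartiles of 2 and 16. RefSeq windows matched 8 of the 10 genes, all but Etv4 and Pou3f1, with 11 windows in all, and 10 of these 11 were above that median, against 46.3% of all windows. The letters TAATTA, a homeodomain core that reads the same on both strands, occurred in 1 of the 11 windows, that of a Foxp1 start, and in 4.84% of all windows. A letter match is a description and not a binding site.

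Estimated counts summed to between 27175421 and 38271405 per library, and 22057 to 22579 genes had a count above 0. Spinal cord identity was checked on 14 interneuron markers, which were above 0 in every library and summed to 908 to 1027 CPM. Motor neuron markers, 9 genes, summed to 513 to 567 CPM in the C201R libraries by library name and 666 to 836 CPM in WT. By title the sums were 513 to 722 and 523 to 836 CPM, which overlap. Of single genes tested, 1.05% had every C201R library below every WT library by library name. The 9 markers moved unequally, with log2 differences (C201R minus WT) from -1.41 to -0.03 by library name. Ahnak2 weighed most in the sum, at 140 ± 4.99 against 239 ± 25.1 CPM (SD, n = 6). Gars, whose single-codon change leaves its transcript countable and so does not check the genotype, was higher in C201R by library name (150 ± 4.20 against 136 ± 4.25 CPM, SD, n = 6; log2 difference 0.15 ± 0.03 SE, edgeR adjusted p = 0.0343) and did not pass by title (0.03 ± 0.05, adjusted p = 0.934). Transcripts of 3 neighbouring tissues varied between libraries: markers of dorsal root ganglion neurons ran from 11.4 to 103 CPM, of meninges from 164 to 384 CPM, and of skeletal muscle from 27.3 to 2818 CPM. Library 6 had the most ganglion transcripts and also the highest sum of motor neuron markers, 836 CPM. Xist, the X-inactivation transcript of females, was at 522 to 685 CPM in libraries 1, 2, 3, 8, 11 and 12. In the other libraries it was at most 0.22 CPM. High Xist was found in 5 libraries titled C201R and 1 titled WT, and in 3 of each genotype by library name. Libraries 2, 3 and 8, high in Xist, are titled male, and libraries 4, 5 and 6, low in it, are titled female. Titled sex, a term in the fits, therefore disagrees with Xist in those libraries. Without that term Lhx4 by library name was -0.46 with an edgeR adjusted p of 0.00388.

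Foxp1 and Etv4 had the highest levels of the 10 once transcript length was taken into account. All levels are those of whole cord, and which cells carried each transcript was not measured. Foxp1, which works with Hox proteins in limb-level motor neurons, averaged 15.4 ± 1.58 TPM, a length-adjusted share of transcripts (SD, n = 12 libraries), and Etv4, a pool factor induced by muscle-derived signals, averaged 15.02 ± 1.63. These leading genes changed places between libraries, with Foxp1 above Etv4 in 7 of 12. Pou3f1 followed at 5.90 ± 1.05 TPM, below Etv4 in 12 of 12 libraries and above Lhx1, at 4.29 ± 0.67, in 11 of 12.

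From Lhx1 downward, neighbours in the order mostly overlapped. Aldh1a2 averaged 3.85 ± 1.87 TPM, Lhx4 3.16 ± 0.57 and Isl2 2.94 ± 1.62. The lowest means were Isl1 at 2.35 ± 0.84, Mnx1 at 2.00 ± 0.37 and Lhx3 at 1.76 ± 0.24 TPM. Mnx1 stood above Lhx3 in 10 of 12 libraries, whereas Aldh1a2 stood above Lhx4 in only 6 of 12. Against all 17765 genes tested, mean TPM placed Lhx3 above 18.2% of genes, Mnx1 above 19.8% and Foxp1 above 53.1%. Aldh1a2 and Isl2 were the most variable, ranging from 1.68 to 8.18 and from 1.09 to 6.43 TPM.

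**Figure D1:**
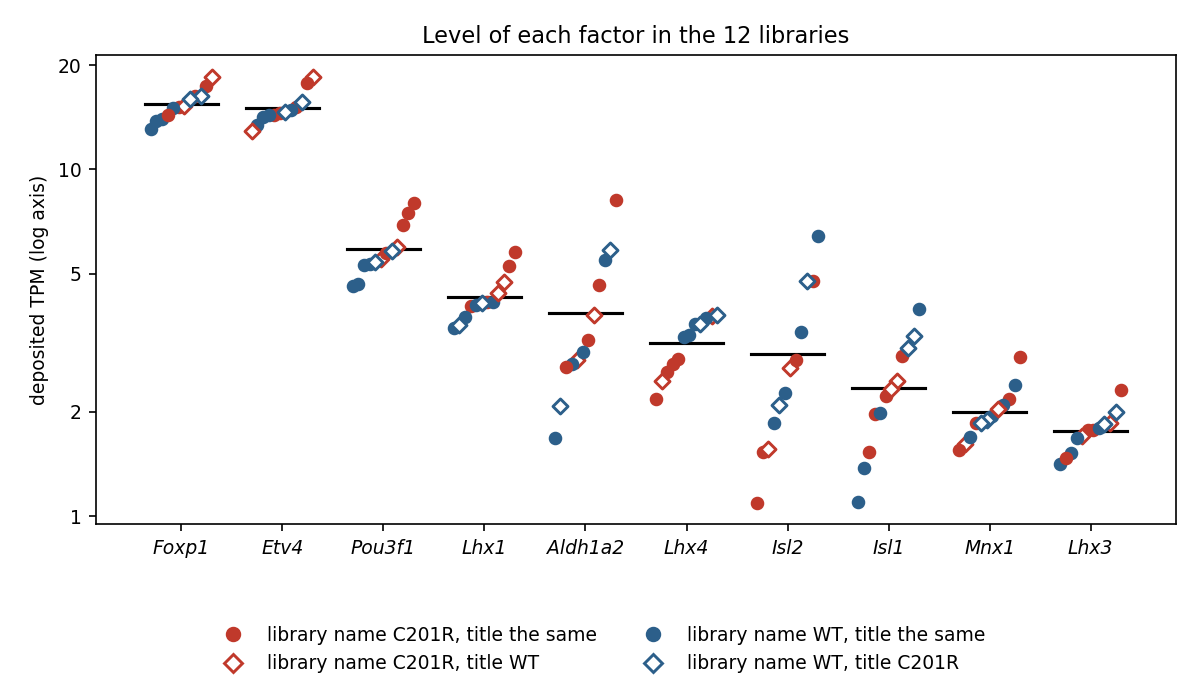
Deposited TPM on a log axis for each gene, ordered by mean; each point is a library, sorted by value within a gene, coloured by library-name genotype and drawn as an open diamond where the title disagrees, and the bar is the mean of 12. Foxp1 and Etv4 sit between 12.88 and 18.54 TPM, above every other gene, and Isl2 and Aldh1a2 spread the most.

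For genotype, 1 of the 10 genes passed the test by library name, and it was Lhx4, which was lower in C201R. In all, 127 of 17765 genes (0.715%) passed, 97 of them (0.546%) lower and 30 (0.169%) higher. Lhx4 and Pou3f1 were the 2 genes of the 10 with an unadjusted p under 0.05, a mark reached by 12.8% of all genes. On the log2 scale, 8 of the 10 differences (C201R minus WT) were above 0, with a median of 0.08 against 0.00 over all genes. By title, edgeR called 0 of the 10 and 0 of 17765 (0.0%). Lhx4 and Pou3f1 were again the 2 below an unadjusted p of 0.05, as were 1202 genes (6.77%), and DESeq2 called 18 genes, none of them from this set.

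**Figure D2:**
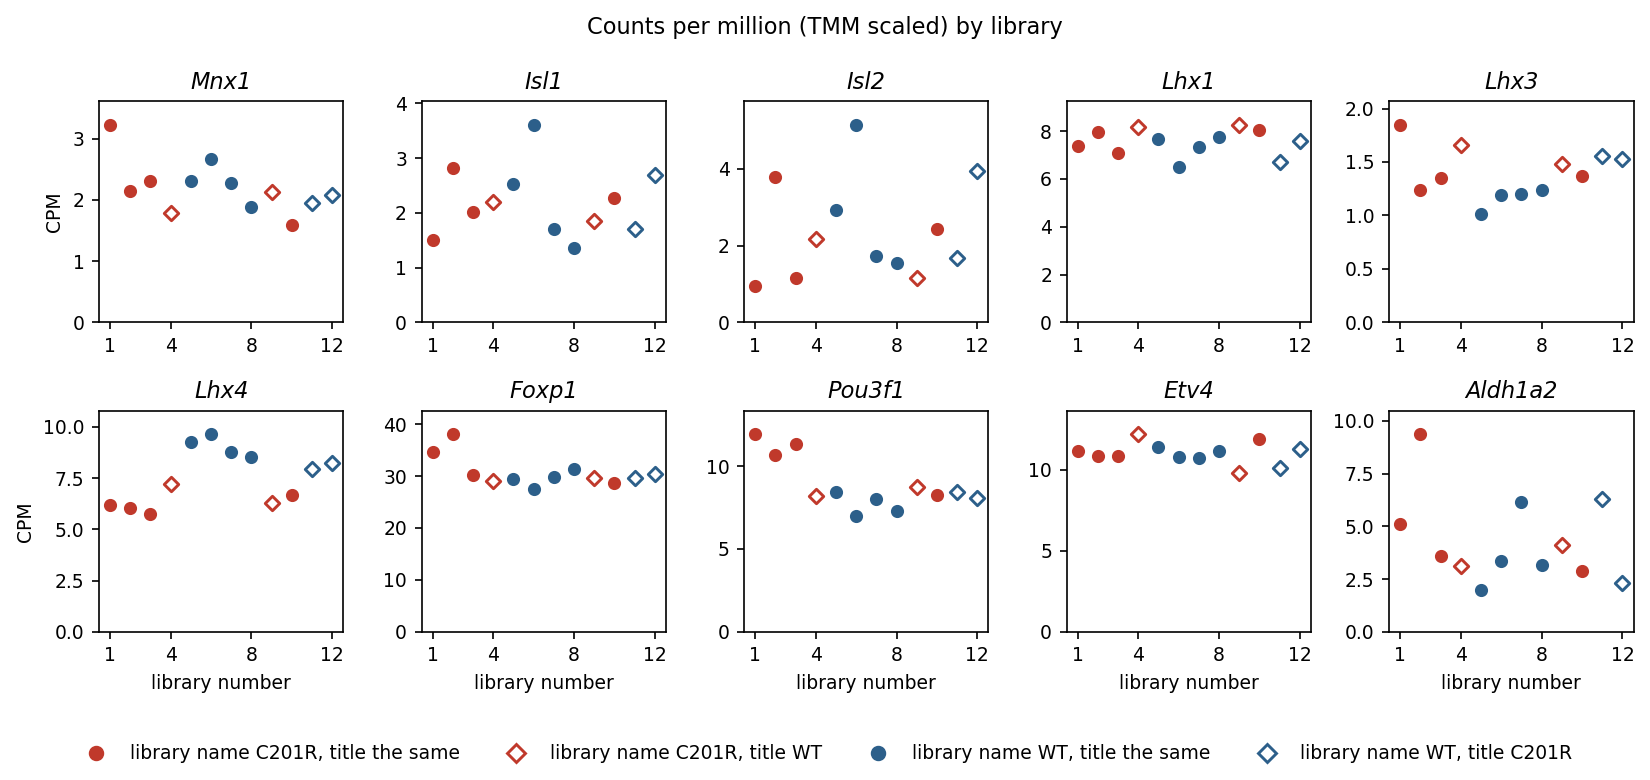
CPM of each gene in libraries 1 to 12, with the vertical axes starting at 0; colour gives the library-name genotype, and open diamonds mark the 4 libraries whose titles disagree. In the Lhx4 panel the 6 red points, 5.73 to 7.18 CPM, lie below the 6 blue points, 7.95 to 9.62 CPM.

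Lhx4 is a LIM homeodomain factor that acts together with its paralog Lhx3 in newborn motor neurons. The C201R libraries by library name ran from 5.73 CPM to 7.18 CPM with a median of 6.23, and the WT libraries from 7.95 to 9.62 CPM with a median of 8.65. The 2 sets did not overlap, and of all genes tested 1.05% likewise had every C201R library below every WT library. The log2 difference was -0.44 ± 0.07 (SE), with an edgeR quasi-likelihood adjusted p of 0.0131. By title, Lhx4 ran from 5.73 to 8.21 CPM in C201R and from 6.27 to 9.62 in WT. These ranges overlapped, with libraries 4 and 9 at 7.18 and 6.27 CPM and libraries 11 and 12 at 7.95 and 8.21 CPM, and the difference was -0.28 ± 0.11 (edgeR adjusted p = 0.673). In the 8 libraries whose labels agree it was -0.53 ± 0.08, with an adjusted p of 0.0547.

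The Lhx4 call rested on single libraries and on the unit. Leaving out library 1, 7 or 8 gave edgeR adjusted p-values of 0.0714, 0.0731 and 0.0588, with log2 differences of -0.41, -0.42 and -0.43. Without the 4 libraries richest in skeletal muscle transcripts the difference was -0.35 with an adjusted p of 0.469. On deposited TPM the C201R libraries ran from 2.18 to 3.78 and the WT libraries from 3.28 to 3.80, and limma on log2(TPM + 1) gave -0.23 with an adjusted p of 0.318. Library 4, C201R by library name and WT by title, is the one that overlapped WT on that scale. Its effective length for Lhx4, by which the authors' TPM is divided, was 3659 bases, the lowest of the 12, of which the highest was 5460.

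Lhx3, the paralog that joins Isl1 in the motor neuron complex, did not pass. By library name it ran from 1.24 to 1.85 CPM in C201R, with a median of 1.42, and from 1.02 to 1.56 CPM in WT, with a median of 1.22. The ranges overlapped and the log2 difference was 0.28 ± 0.14 (edgeR adjusted p = 0.418), with 0.18 ± 0.14 by title (adjusted p = 0.871). Counts for Lhx3 were 33 to 59 per library. The estimated count of Lhx3 divided by that of Lhx4 was 0.204 to 0.298 in C201R by library name and 0.110 to 0.196 in WT. Those ratios did not overlap, and relative to Lhx4, which itself does not overlap between the genotypes, 58.2% of all other genes tested were likewise higher in every C201R library. The log2 ratio of Lhx3 to Lhx4 was higher in C201R by 0.67, with a 95% interval of 0.32 to 1.02 (exact permutation test, two-sided, p = 0.00216, adjusted p = 0.00866 over 4 paralog tests). At an unadjusted exact p under 0.05, 85.1% of all other genes were higher relative to Lhx4, so this result is not particular to Lhx3. By title the ratio differed by 0.48 with an interval of -0.00 to 0.96 (exact permutation p = 0.0519, adjusted p = 0.0750).

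Mnx1, whose product holds motor neurons to their fate against interneuron programmes, ran from 1.59 to 3.22 CPM in C201R by library name and from 1.88 to 2.66 CPM in WT. The medians were 2.14 and 2.18 CPM, the WT range lay inside the C201R range, and the log2 difference was 0.07 ± 0.16 (edgeR adjusted p = 0.913). Lhx1, the factor of the lateral limb column, was 7.08 to 8.25 CPM in C201R and 6.51 to 7.75 CPM in WT, with medians of 8.01 and 7.46. Its difference of 0.09 ± 0.07 did not pass (edgeR adjusted p = 0.630), and by title it was -0.03 ± 0.07 (adjusted p = 0.968).

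Among the column and pool factors, Foxp1 had C201R libraries from 28.7 to 38.02 CPM and WT libraries from 27.5 to 31.4 CPM by library name, with medians of 29.9 and 29.7. Libraries 1 and 2, C201R by both labels, were the 2 highest, and the log2 difference was 0.09 ± 0.07 (edgeR adjusted p = 0.692). Pou3f1, a POU factor of particular motor pools, ran from 8.19 to 11.9 CPM in C201R and from 7.00 to 8.47 CPM in WT, with medians of 9.72 and 8.06. Its highest libraries were 1, 2 and 3, at 11.9, 10.7 and 11.3 CPM, all C201R by both labels. They are also the 3 C201R libraries by library name with high Xist. The WT libraries with high Xist, 8, 11 and 12, had 7.29, 8.43 and 8.09 CPM, and a part of sex was not tested. Of the remaining C201R libraries, library 9 had 8.75 CPM, above every WT library, and libraries 4 and 10 fell within the WT range at 8.19 and 8.29 CPM. The log2 difference was 0.34 ± 0.11 by library name (edgeR adjusted p = 0.209) and 0.30 ± 0.11 by title (adjusted p = 0.671). By library name it was 0.09 without the 4 libraries richest in skeletal muscle transcripts and 0.06 within the 6 libraries with the most dorsal root ganglion transcripts. Summed markers of Schwann cells, which also use Pou3f1, were 419 to 910 CPM in C201R and 260 to 1425 CPM in WT by library name, and their part in the Pou3f1 values was not tested.

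Etv4 was the steadiest of the 10 in CPM, from 9.79 to 12.2 CPM in C201R by library name and from 10.1 to 11.4 CPM in WT. Medians were 11.02 and 10.99 CPM, and the log2 difference was 0.04 ± 0.06 (edgeR adjusted p = 0.825), with 0.00 ± 0.06 by title (adjusted p = 0.999).

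**Figure D3:**
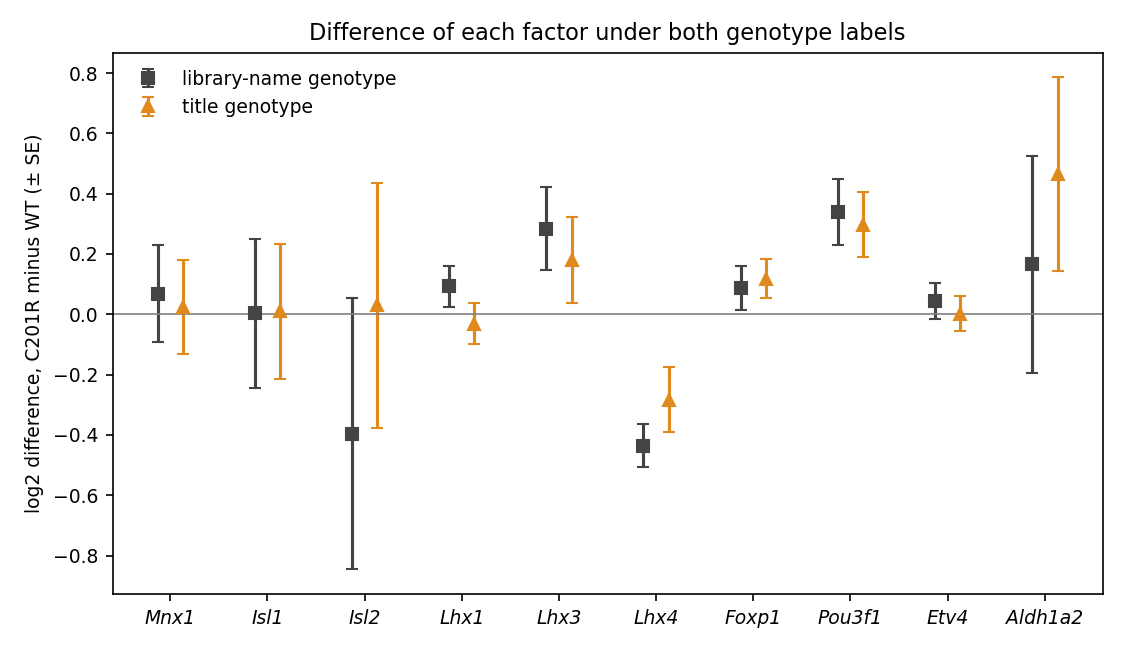
Log2 difference (C201R minus WT) of each gene with its standard error, under the library-name genotype (grey squares) and the title genotype (orange triangles), 6 against 6 libraries each. By library name Lhx4 lies farthest from 0 for its error, at -0.44 ± 0.07, by title Pou3f1 (0.30 ± 0.11) does so with Lhx4 (-0.28 ± 0.11) next, and the errors of Isl2 and Aldh1a2 are the widest.

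Isl1 and Isl2 are LIM homeodomain paralogs that motor neurons share with the sensory neurons of the dorsal root ganglia, which lie beside the cord. By library name Isl1 ran from 1.501 to 2.83 CPM in C201R and from 1.35 to 3.60 CPM in WT, and its medians were 2.10 and 2.12. Isl2 ran from 0.94 to 3.79 CPM in C201R and from 1.54 to 5.14 CPM in WT, with medians of 1.67 and 2.33. Both ranges overlapped widely, and the log2 differences were 0.00 ± 0.25 (edgeR adjusted p = 0.997) and -0.40 ± 0.45 (adjusted p = 0.780). The Isl2 value turned on single libraries, at -0.02 without library 1 and -0.64 without library 2.

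Both genes were higher in the libraries that held more sensory neuron transcripts. The 10 markers of dorsal root ganglion neurons summed to 23.9 to 103 CPM in libraries 2, 4, 5, 6, 10 and 12 and to 11.4 to 14.3 CPM in the other 6, and each set holds 3 C201R libraries under both labels. Isl2 was 2.16 to 5.14 CPM in the 6 libraries with more of these transcripts and 0.94 to 1.74 CPM in those with fewer. Isl1 was 2.196 to 3.60 CPM in the former and 1.35 to 2.01 CPM in the latter. The sets did not overlap for either gene, and 0.276% of all genes were likewise higher in every library of the former than in any of the latter. No test was made of this division. In the libraries with fewer, Mrgprd, a marker of one class of sensory neuron, was at 0 to 0.06 CPM and at 0 in 4, and Scn10a, a sodium channel of sensory neurons, was at 0 in 2. Other markers of the 10 did not fall near 0 there: Pou4f1 was at 5.47 to 7.07 CPM, Prrxl1 at 3.10 to 3.87 and P2rx3 at 1.10 to 2.47. Prrxl1 differed little from the libraries with more, where it was at 3.36 to 4.32 CPM. The lower end of the sum is thus set mostly by these genes.

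Per doubling of the summed dorsal root ganglion markers, Isl2 rose by 0.59 ± 0.05 in log2 CPM (edgeR adjusted p = 0.000468, with genotype by library name, titled sex and meninges markers in the fit). In that fit 50 of 17765 genes (0.281%) passed, all upward. Isl1 had 0.29 ± 0.06 per doubling and an adjusted p of 0.128, which became 0.0477 without the meninges markers in the fit. Isl2 stayed past the threshold in 14 of 14 alternatives, between 0.54 and 0.61 per doubling. Of the other 8 genes, none passed, and Lhx4 had 0.04 ± 0.03 per doubling (adjusted p = 0.999). This comparison was chosen after the values were seen.

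With the ganglion markers as a term, the genotype difference of Isl2 by library name was -0.62 ± 0.12 (edgeR adjusted p = 0.0478; 0.664% of genes passed), and Lhx4 was -0.44 with an adjusted p of 0.0145. That was the only setting in which Isl2 passed. Within the 6 libraries with more ganglion transcripts the Isl2 difference was -0.89 (adjusted p = 0.988), and within the 6 with fewer it was -0.61 (adjusted p = 0.932). In the latter set, the 3 C201R libraries had 0.94, 1.17 and 1.15 CPM and the 3 WT libraries 1.74, 1.54 and 1.68 CPM. These did not overlap, and neither did 5.25% of all genes in that direction, while by title the same 6 libraries overlapped, with library 9 at 1.15 CPM in WT and library 11 at 1.68 CPM in C201R. By title the Isl2 difference with the same term was -0.25 ± 0.19 (adjusted p = 0.871). The Isl1 to Isl2 ratio was 0.746 to 1.72 in C201R and 0.682 to 1.02 in WT by library name, and the log2 ratios differed by 0.52 (exact permutation p = 0.0563, adjusted p = 0.0750).

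Aldh1a2 makes retinoic acid, which limb-level motor neurons release to their neighbours during development, and the meninges make it too. By library name it ran from 2.89 to 9.35 CPM in C201R and from 1.97 to 6.30 CPM in WT, with medians of 3.86 and 3.26. The ranges overlapped and the log2 difference was 0.17 ± 0.36 (edgeR adjusted p = 0.901), with 0.47 ± 0.32 by title (adjusted p = 0.845). Library 2 was highest in Aldh1a2 and also in the sum of 10 meninges markers, at 384 CPM. Per doubling of that sum Aldh1a2 rose by 1.497 ± 0.26 in log2 CPM (edgeR adjusted p = 0.0426), in a fit where 57 genes (0.321%) passed, all upward. The call was lost in 13 of 14 alternatives. Without library 2 the value was 1.13 per doubling with an adjusted p of 0.640, and the highest value was 2.04, without library 4. Crabp2, which binds retinoic acid inside cells, also passed in the fit of all 12 libraries, at 2.23 ± 0.35 per doubling (edgeR adjusted p = 0.0327). In that fit the 10 meninges markers had a median of 1.11 per doubling. All 8 blood markers rose too, with a median of 1.23, and all 6 endothelium markers, with a median of 0.28. Library 2 also had the most blood transcripts, at 2981 CPM. Which of these tissues goes with Aldh1a2 was not tested.

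**Figure D4:**
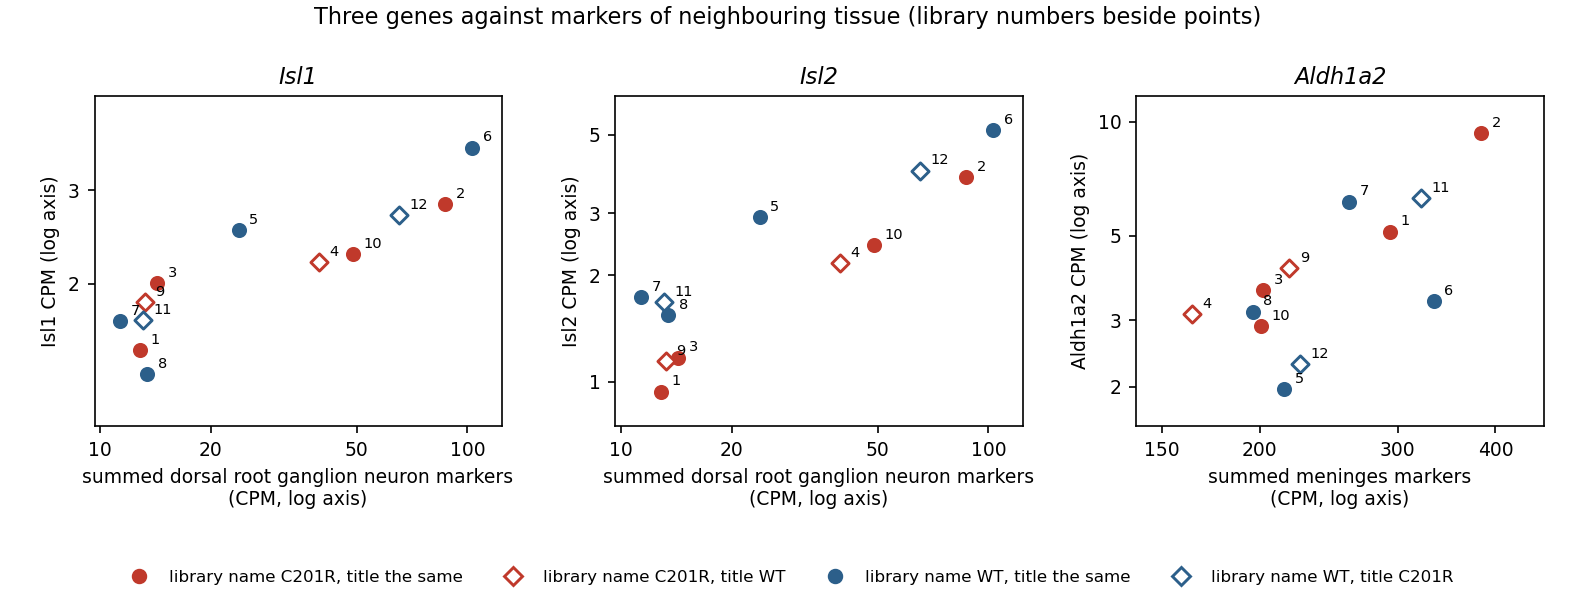
CPM of Isl1 and Isl2 against the summed markers of dorsal root ganglion neurons, and of Aldh1a2 against the summed markers of meninges, all on log axes; points are the 12 libraries, numbered, with colours and diamonds as above. Libraries 6, 2 and 12 have the most ganglion transcripts and the highest Isl2, at 5.14, 3.79 and 3.95 CPM, and library 2 has the most meninges transcripts and the highest Aldh1a2.

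Chat, the enzyme that makes acetylcholine, is a transcript of all motor neurons and of some interneurons, and the ratio of Lhx4 to Chat was nearly the same in every library. Chat itself was lower in C201R by library name, 16.9 ± 1.31 against 23.4 ± 1.67 CPM (SD, n = 6; log2 difference -0.45 ± 0.06, edgeR adjusted p = 0.00431), and by title the difference of -0.29 ± 0.11 did not pass (adjusted p = 0.673). In bulk tissue, fewer motor neurons, less RNA per motor neuron and a change of Chat itself cannot be told apart. Other motor neuron markers moved unequally by library name, at -1.41 for Chodl, -0.75 for Ahnak2, -0.14 for Ret and -0.10 for Gfra1. Per doubling of the ganglion markers, 4 of the 9 motor neuron markers rose and 5 fell. Of these, 1 passed, upward, against 0.281% of all genes. Prph was at 61.4 to 70.2 CPM in the C201R libraries with more ganglion transcripts and 43.8 to 50.9 in those with fewer. In WT by library name it was at 77.0 to 110 and 59.0 to 64.3 CPM. Whether Chat follows motor neuron content was not tested. The estimated count of Lhx4 divided by that of Chat was 0.341 to 0.407 in the 12 libraries, with a coefficient of variation of 5.75%, the lowest of the 10 genes. By library name the log2 ratio of Lhx4 differed by 0.01, with a 95% interval of -0.10 to 0.12 (exact permutation test over 924 splits, two-sided, p = 0.814). Against the mean of Chat and Slc5a7 it differed by -0.12. Lhx4 counts were 191 to 300 per library, so sampling noise limits how finely its ratio to Chat can be read.

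Relative to Chat, 6 of the 10 genes were higher in C201R by library name after adjustment over 20 exact permutation tests, 10 genes under 2 labels. The log2 ratio was higher by 0.78 for Pou3f1, 0.68 for Lhx3, 0.58 for Lhx1, 0.56 for Foxp1 and 0.50 for Etv4, each with an exact permutation p of 0.00216, the smallest that 924 splits could give, and an adjusted p of 0.00866. For each of these 5, every C201R library was above every WT library, and the same held for 62.5% of all other genes tested, with Chat itself not overlapping between the genotypes. At an unadjusted exact p under 0.05, 85.7% of genes were higher relative to Chat, with a median difference of 0.47 over all genes, so 6 of 10 is not above the share of genes in general. Mnx1 was higher by 0.45 (interval 0.12 to 0.79, adjusted p = 0.0289), a call lost in 7 of 14 alternatives: against the mean of Chat and Slc5a7 (adjusted p = 0.0920) and without any 1 of libraries 5, 6, 7, 8, 11 and 12, reaching 0.101 without library 8. The calls of the other 5 held in 14 of 14 alternatives each. Isl1 differed by 0.42 (interval -0.13 to 0.97), Isl2 by -0.10 (-1.08 to 0.90) and Aldh1a2 by 0.77 (-0.10 to 1.68), and these did not pass. By title 0 of 10 passed, with 2 higher at an unadjusted exact p under 0.05, Foxp1 at 0.0433 and Pou3f1 at 0.0368, against 16.8% of all genes. Lhx3 passed by title without library 4, at 0.61 and an adjusted exact p of 0.0309. Because Chat is the denominator throughout, these ratios share its lower level in C201R, and the ratios of the separate genes are not independent of each other.

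**Figure D5:**
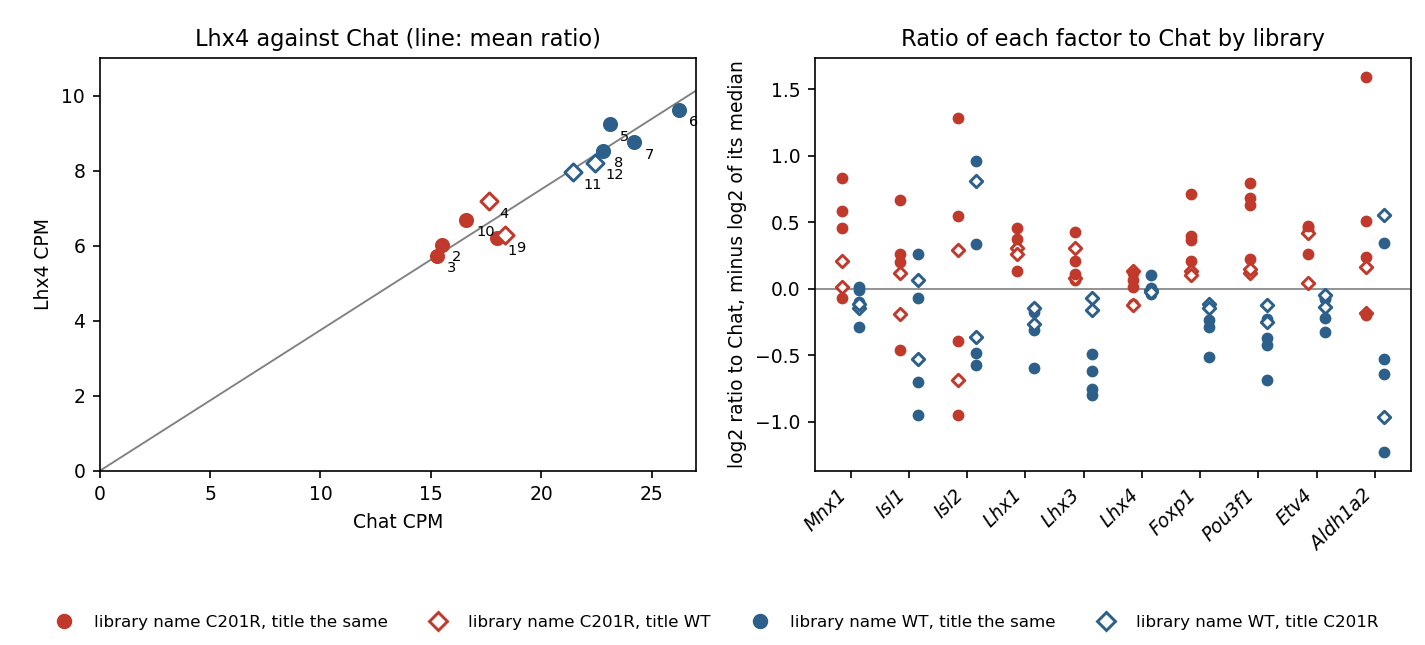
Left, Lhx4 against Chat in CPM with both axes from 0 and a line at the mean ratio; right, the log2 ratio of each gene to Chat minus the log2 of its median ratio, with C201R libraries by library name to the left of WT within each gene. The Lhx4 ratios stay between 0.341 and 0.407, while for Lhx1, Lhx3, Foxp1, Pou3f1 and Etv4 every red point lies above every blue one, as for 62.5% of all genes.

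The 5 genes whose log2 CPM over the 12 libraries was most like that of Lhx4, by Pearson's r, were Nefm (0.976), Fxyd7 (0.966), Nefl (0.959), Slc10a4 (0.954) and Kcnj14 (0.952). Nefm and Nefl encode neurofilament subunits. The libraries share tissue and genotype, so r takes in the difference between genotypes and is given as a description. Likeness to Lhx4 largely fixes the direction by genotype, so the differences are given with no test. By library name they ran from -0.37 for Nefl to -0.70 for Kcnj14, and by title from -0.19 for Nefl to -0.41 for Slc10a4. Kcnj14 averaged 13.2 ± 0.92 CPM in C201R against 21.9 ± 1.00 CPM in WT, and Nefm 1788 ± 105 and 2456 ± 143 CPM (SD, n = 6).

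None of the 73 tested genes in 6 lists around these factors passed under either label with edgeR. Over all genes tested, 12.8% had an unadjusted p under 0.05 by library name and 6.77% by title. The counts for each list below are to be read beside these shares. Of the cofactors of LIM proteins, 10 of 10 were tested, 7 had differences above 0 by library name, and 3 had an unadjusted p under 0.05. Ssbp3, which stabilises the Ldb1 complex, had the lowest p, at 105 ± 2.88 CPM in C201R and 110 ± 3.21 in WT (log2 difference -0.08 ± 0.03, adjusted p = 0.272). Of 5 tested LIM homeodomain factors outside the set, none had an unadjusted p under 0.05 by library name, and Lmx1b, a factor of dorsal interneurons, was at 0.11 ± 0.06 (adjusted p = 0.522). Their list medians were 0.05 and 0.11.

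Among 11 genes of the progenitor stage, 3 had an unadjusted p under 0.05 and the median difference was -0.00. Ptch1, the receptor of Sonic hedgehog, had 89.4 ± 8.07 CPM in C201R and 104 ± 4.68 in WT (-0.23 ± 0.06, edgeR adjusted p = 0.104), and Pax6, a progenitor homeodomain factor, was at 0.20 ± 0.07 (adjusted p = 0.228). For the 17 other column and pool factors the median was 0.07 and 3 had an unadjusted p under 0.05. Foxp4, a relative of Foxp1, was at 0.15 ± 0.05 (adjusted p = 0.162), and Pou3f3, a relative of Pou3f1, at -0.12 ± 0.03 (adjusted p = 0.164).

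Of 16 tested retinoid pathway genes, 4 had an unadjusted p under 0.05. Aldh1a1, a second retinoic acid enzyme, came nearest the threshold, at 136 ± 5.44 CPM in C201R and 152 ± 5.61 in WT by library name (-0.16 ± 0.04, edgeR adjusted p = 0.0677). Of 14 guidance and survival receptors of columns and pools, 2 had an unadjusted p under 0.05, Gfra1 at -0.10 ± 0.03 (adjusted p = 0.124) and Ret at -0.14 ± 0.05 (adjusted p = 0.319), which together bind the muscle-derived factor GDNF that induces Etv4. By title the lowest p of the 6 lists was that of Ebf2, a relative of the early B-cell factor Ebf1, at 0.29 ± 0.07 (adjusted p = 0.542), and each list had 0 to 3 genes at an unadjusted p under 0.05. In the separate list of 9 measured motor neuron markers, Ahnak2, Chodl and Chat passed and were lower by library name. Over all genes 0.546% did so. By title 0 of the 9 passed, and 3 had an unadjusted p under 0.05, against 6.77% of all genes.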

How the data were processed

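Total RNA of whole spinal cord was made into polyA-selected, stranded libraries and read as 75-base pairs, per the labels' protocols. Bowtie2 2.2.0 and RSEM 1.2.12 are named in the submitters' processing notes. Which build and annotation were used is not given in the sources used here. The authors' RSEM tables hold, per the file headers, an expected count, TPM, FPKM and effective length. RSEM divides reads that match several genes, so values of close paralogs and overlapping genes are uncertain.

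Expected counts were rounded, filtered with filterByExpr on the 4 titled groups, scaled by TMM and fitted in edgeR 4.0.16 (R 4.3.3) for its quasi-likelihood test of genotype, titled sex being a term. Adjustment was by Benjamini-Hochberg over 17765 genes, with a threshold of 0.05. Standard errors are the log2 difference over the square root of F. CPM use TMM-scaled library sizes. Deposited TPM served for levels between genes and for limma 3.58.1 alternatives, and deposited FPKM for 1 alternative order. DESeq2 1.42.0 was another alternative. Ratios were tested by exact permutation over 924 splits (scipy 1.17.1), with intervals by inverting that test. Likeness, and ratio tests over all genes, used log2(CPM + 0.01). Marker sums per library entered as log2 terms. Python 3.11.15, numpy 2.4.6, pandas 2.3.3 and matplotlib 3.10.9 were also used. The fits were tested on simulated data.

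The genes and lists were chosen with earlier results of these data known. The genes named from each list are up to 4 that passed, otherwise the 2 of lowest p, and the text gives some of these. The marker comparisons, the fits within sets of 6 libraries and the paralog ratios were chosen after seeing the data. Of the 10 genes in the motor neuron marker list, Slc18a3 was not found by that symbol, so 9 were used. Of 2 Ebf1 entries the larger was used. No 2 libraries agreed within sampling noise: the lowest chi-square over its degrees of freedom in 66 pairs was 6.49.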

Additional observations from a re-analysis of the deposited data

Results flagged for a closer look

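Aldh1a2 in library 2, at 9.35 CPM, stood apart from the other 5 C201R libraries by library name, which ran from 2.89 to 5.13 CPM: its gap to the nearest, over the whole range, was above Dixon's 95% critical value. The same library had the highest sums of meninges markers, 384 CPM, and of blood markers, 2981 CPM. It was the only value to stand apart so among 40 groups of 6 libraries examined, where chance gives about 1 in 20.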

How the results depend on the processing

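By library name Lhx4 was lower in C201R in all 29 alternatives and past the threshold in 20, between -0.53 and -0.23, and Lhx1, Lhx3 and Pou3f1 stayed above 0 in all 29 without passing, Pou3f1 between 0.056 and 0.48. No paired analysis was possible because the genotypes share no replicate number. Depth limits the low genes most, such as Lhx3 with 33 counts in its lowest library.

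Gene counts by library name were 335 with DESeq2, 45 and 34 with limma on log2(TPM + 1) and log2(TPM + 0.1), 235 with library number as a term, 29 in the 8 libraries with agreeing labels, 12 without the 4 muscle-rich libraries, 80 without libraries 2 and 6 (the richest in both ganglion and meninges transcripts), 1 and 3 within the libraries with more and fewer ganglion transcripts, and 54 (without library 7) to 221 (without library 9) leaving out 1 library. The 127 also shifted by over 1.5 times without library 1 (57), 3 (84), 4 (58), 5 (83), 8 (67) or 12 (81). Of the 10 genes, 0 passed in the TPM fits, the 8 agreeing libraries, the fit without muscle-rich libraries and both ganglion sets, 2 with ganglion markers as a term, and 0 to 1 leaving out 1 library. By title, gene counts were 18 with DESeq2, 8 with library number, 29 in the 8 agreeing libraries and 18 in the libraries with fewer ganglion transcripts. By median TPM Lhx4 ranked 5, and Foxp1 and Etv4 exchanged ranks 1 and 2 without library 9. Relative to Chat, 0 to 1 passed by title leaving out 1 library.

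The following differences, none past the threshold, changed sign. By library name these were Mnx1 -0.14, Isl1 -0.031 and Aldh1a2 -0.092 with library number as a term, and Mnx1 -0.23, Isl2 0.031 and Aldh1a2 -0.18 without the muscle-rich libraries. Mnx1 was -0.40, Isl1 -0.42 and Foxp1 -0.0098 in the libraries with more ganglion transcripts, and Etv4 -0.0034 and Aldh1a2 -0.28 in those with fewer. Isl1 was -0.00082 without the filter, -0.0063 with voom, -0.11 without sex and -0.065 with ganglion markers, and Aldh1a2 -0.088 without libraries 2 and 6. By title, Mnx1 was -0.018 with voom, -0.13 without muscle-rich libraries, -0.049 with meninges markers and -0.11 in the set with more ganglion transcripts. Isl1 was -0.054 with voom, -0.023 without sex, -0.089 with ganglion markers, -0.053 with meninges markers and -0.035 in the set with more. Isl2 was -0.076 and -0.12 in the TPM fits, -0.28 with voom, -0.065 without sex, -0.27 in the 8 agreeing libraries, -0.25 with ganglion markers, -0.099 with meninges markers and -0.33 in the set with fewer. Lhx1 was 0.097 and 0.12 in the TPM fits, 0.042 in the 8 agreeing libraries, 0.0036 with meninges markers and 0.030 in the set with more. Etv4 was -0.0034 without the filter, -0.0065 with voom, -0.0070 without libraries 2 and 6, -0.0061 with ganglion markers and -0.024 in the set with more. Foxp1 was -0.0057 in the set with fewer, and Aldh1a2 -0.28 and -0.31 in the sets with more and fewer. Relative to Chat, Lhx4 was -0.12 by library name against the mean of Chat and Slc5a7, and 0.061 by title on TPM. The cause of these changes was not tested.

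Leaving out 1 library in turn, by library name Mnx1 ran from -0.14 to 0.20, Isl1 from -0.19 to 0.24, Aldh1a2 from -0.062 to 0.39, and relative to Chat Isl2 from -0.35 to 0.093 and Lhx4 from -0.012 to 0.039. By title Mnx1 ran from -0.10 to 0.095, Isl1 from -0.11 to 0.17, Isl2 from -0.24 to 0.30, Lhx1 from -0.068 to 0.0030, Etv4 from -0.031 to 0.034, and relative to Chat Isl2 from -0.041 to 0.41 and Lhx4 from -0.027 to 0.024.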
